A study of Rattus norvegicus with 12 samples.

Results

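A set of 10 genes of BMP and activin signaling were followed through a comparison of ChREBPβ with GFP in INS-1 cells. They are Id1, Id2, Id3 and Id4, the inhibitory Smads Smad6 and Smad7, the pseudoreceptor Bambi, the activin subunit genes Inhba and Inhbb, and Fst. Members were found by name, and all 10 are among the 28727 named genes of the count table. Of these, 9 passed the filter on low counts and were tested together with 14669 genes in all. Fst did not pass.

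The cells were INS-1 832/13, an established rat insulinoma line that secretes insulin. They carried an adenovirus for GFP, the control, or for a mouse ChREBPβ fused to mCherry, and stayed at 2 or 11 mM glucose for 48 h. That time comes from the study's account of the sequencing, and its general virus protocol names a longer one. ChREBPβ is the short, constitutively active isoform of the glucose-responsive transcription factor made by Mlxipl. Each of the 4 combinations has 3 libraries, a to c, which the study describes as independent experiments. All groups therefore share a tumor cell line and an adenovirus, and the factor is an introduced one.

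Id proteins have a helix-loop-helix domain but no basic region. They pair with basic helix-loop-helix (bHLH) transcription factors such as the E proteins and keep them from binding DNA. BMPs activate receptors that phosphorylate Smad1, Smad5 and Smad8, and the Id genes are among the classical targets of these Smads. Activins, which are dimers of inhibin β subunits, signal through Smad2 and Smad3. Smad6, Smad7 and Bambi are induced by the pathway and restrain it inside the cell or at the receptor, and follistatin, made by Fst, binds activins outside the cell. In the islet these signals take part in β-cell differentiation and insulin secretion.

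Promoters of the 4 Id genes are shown because the Id genes moved in opposite directions. RefSeq promoter sequences for assembly GRCr8 were matched for 8 of the 10 genes, each with 250 bases before and 50 bases after the start. Smad6 and Fst were not matched. The bases before the start are given 5′ to 3′ on the strand of the gene. Those of Id1 lie at chr3:161671314-161671563 on the plus strand and those of Id2 at chr6:47470996-47471245 on the minus strand. Those of Id3 lie at chr5:153656041-153656290 on the plus strand and those of Id4 at chr17:16598294-16598543 on the minus strand. Capitals mark CCAAT or its reverse complement ATTGG.
Id1: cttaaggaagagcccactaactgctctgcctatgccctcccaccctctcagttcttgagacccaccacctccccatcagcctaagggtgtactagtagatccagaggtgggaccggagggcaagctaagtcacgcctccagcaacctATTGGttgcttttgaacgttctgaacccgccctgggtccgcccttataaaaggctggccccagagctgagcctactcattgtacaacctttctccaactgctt
Id2: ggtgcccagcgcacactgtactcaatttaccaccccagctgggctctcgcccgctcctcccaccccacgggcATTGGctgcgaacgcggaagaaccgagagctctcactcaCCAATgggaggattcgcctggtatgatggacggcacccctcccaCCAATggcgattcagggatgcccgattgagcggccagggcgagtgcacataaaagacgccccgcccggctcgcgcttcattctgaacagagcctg
Id3: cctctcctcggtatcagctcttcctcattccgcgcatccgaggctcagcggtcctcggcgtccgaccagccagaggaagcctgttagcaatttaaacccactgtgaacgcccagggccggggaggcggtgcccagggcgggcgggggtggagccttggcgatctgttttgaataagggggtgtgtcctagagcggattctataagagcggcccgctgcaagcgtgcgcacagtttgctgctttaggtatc
Id4: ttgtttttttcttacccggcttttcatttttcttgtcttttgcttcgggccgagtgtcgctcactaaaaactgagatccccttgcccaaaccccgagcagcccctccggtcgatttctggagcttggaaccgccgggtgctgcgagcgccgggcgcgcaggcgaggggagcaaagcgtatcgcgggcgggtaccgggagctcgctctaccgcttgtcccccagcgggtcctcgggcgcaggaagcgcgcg

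CCAAT was found 1 time before the start of Id1 and 3 times before that of Id2, and in neither the Id3 nor the Id4 window. It was added to the search after the sequences and the changes of the genes had been seen, and 37.5% of all 33469 promoters hold it on either strand. Inhba is the other gene of the set that holds it. The E-box CACGTG, found in 6.42% of all promoters, was in none of the 8 windows, and the same held for GTCTAGAC (0.197%) and TGACGTCA (1.83%). GGCGCC, a GC-rich motif of BMP-responsive Smads found in 11.0% of all promoters, was in 4 windows, those of Id4, Smad7, Bambi and Inhbb. CAGACAG (7.31%) was in that of Inhba alone. All motifs were searched on both strands. GC content ranged from 45.7% to 84.3% over the 8 windows, against a median of 51.7% over all promoters.

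Library totals ranged from 25754488 to 60531215 counts. They moved with the groups, from 25754488 to 32938546 with GFP at 2 mM and from 57088794 to 60531215 with ChREBPβ at 11 mM, and ChREBPβ at 2 mM held a shallower library, a, with 28595982. Counts were scaled to a common library size with TMM factors and are given as CPM. Neither Mlxipl nor an entry named ChREBPb showed a strong overexpression. Mlxipl was at 240 to 277 CPM with GFP and 199 to 212 CPM with ChREBPβ at 2 mM. The ChREBPb entry was at 73.2 to 82.2 CPM and 89.7 to 90.7 CPM in the same groups. Whether reads of the mouse transgene are counted in either rat entry is not given in the sources used here, so ChREBPβ below means the libraries labelled so. Txnip, an established ChREBP target, rose with ChREBPβ by 4.12 ± 0.054 (SE) on the log2 scale at 2 mM (adjusted p of edgeR's quasi-likelihood, QL, test = 2.12e-21) and by 0.93 ± 0.046 at 11 mM (QL adjusted p = 1.54e-12). On the same scale Mlxipl changed by -0.33 at 2 mM (QL adjusted p = 2.03e-05) and -0.14 at 11 mM (QL adjusted p = 0.0295). The ChREBPb entry changed by 0.21 at 2 mM (QL adjusted p = 0.00841) and 0.37 at 11 mM (QL adjusted p = 6.90e-05).

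Of 10 β-cell markers, 8 were above 1 CPM in every group, and the summed level of the list was 23185 to 26106 CPM with GFP and 12502 to 12914 CPM with ChREBPβ at 2 mM. At both glucose concentrations 7 of the 8 tested fell with ChREBPβ, Ins1 and Pdx1 among them, and Slc2a2 rose. In bulk RNA, fewer cells of a type and less RNA per cell cannot be told apart. Markers of other islet hormones, nearly all Gcg, summed to 1591 to 1668 CPM with GFP and 431 to 442 CPM with ChREBPβ at 2 mM. Gcg, which encodes glucagon, fell by 1.91 at 2 mM and by 1.79 at 11 mM on the log2 scale (QL adjusted p = 5.65e-18 and 3.58e-17). Endothelial markers summed to at most 1.86 CPM in any library and leukocyte markers to at most 1.29 CPM. Fibroblast markers summed to 0 to 0.117 CPM with GFP and 0.481 to 1.11 CPM with ChREBPβ at 2 mM, mostly Pdgfrb. The part of depth and of these markers in the changes described next was not tested.

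ChREBPβ raised Id1 and Id2 and lowered Id4 at both glucose concentrations, while Id3 did not pass the test at either. Inhbb, which encodes the activin βB subunit, fell at both. A gene was called when the test gave an adjusted p under 0.05 and the change was at least 1.2-fold. At 2 mM 2 of the 9 tested genes were called higher and 3 lower, and over all tested genes 21.0% were called higher and 23.2% lower. At 11 mM 3 were called higher and 2 lower, against 14.3% and 19.1% of all genes. The median log2 fold change of the 9 genes was -0.14 at 2 mM and 0.06 at 11 mM, and that of all tested genes was -0.02 at both. When libraries were scaled by their totals instead, the median of all genes moved to -0.12 at 2 mM and -0.10 at 11 mM, and the share of calls that were higher fell from 47.5% to 33.2% and from 42.9% to 29.3%.

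**Figure D1:**
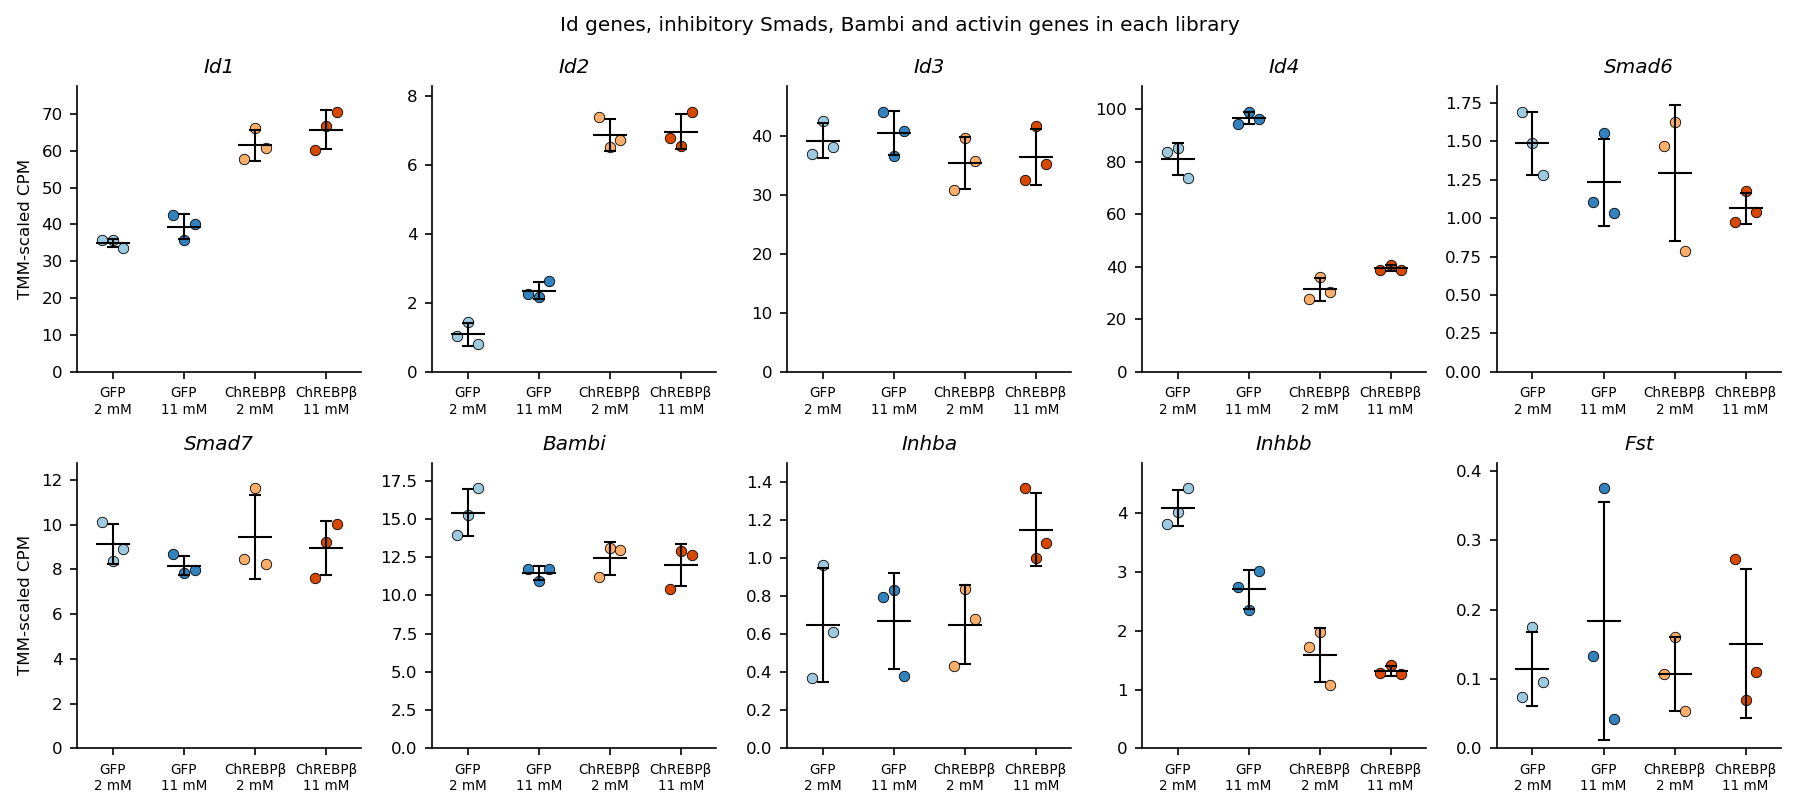
TMM-scaled CPM of the 10 genes in each of the 12 libraries (points), with the mean and SD of each group of 3 (bars), on linear axes that start at 0 and differ between genes. Id1 and Id2 were higher in every ChREBPβ library than in any GFP library, Id4 and Inhbb were lower, and Id3, Smad6, Smad7 and Fst overlapped between viruses.

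Id2, an Id protein linked to proliferation in many cell types, showed the largest change of the 9. With GFP it was at 1.03, 1.46 and 0.801 CPM at 2 mM and at 2.26, 2.17 and 2.62 CPM at 11 mM. With ChREBPβ it was at 7.38, 6.51 and 6.72 CPM at 2 mM and at 6.79, 6.56 and 7.53 CPM at 11 mM. The 2 GFP groups did not overlap each other or the ChREBPβ groups, and the 2 ChREBPβ groups overlapped. The increase with ChREBPβ was 6.15-fold at 2 mM (log2 2.62 ± 0.17, SE, QL adjusted p = 5.36e-11) and 2.95-fold at 11 mM (log2 1.56 ± 0.14, SE, QL adjusted p = 9.6e-09). Counts behind the lowest group were 25 to 50 per library.

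Id1, the Id gene most closely tied to BMP signaling, held 35.6, 35.7 and 33.6 CPM in the GFP libraries of 2 mM glucose and 42.6, 35.6 and 40.1 CPM in those of 11 mM. ChREBPβ libraries held 57.8, 66.1 and 60.6 CPM at 2 mM and 60.1, 66.6 and 70.5 CPM at 11 mM, all above every GFP library. The increase was 1.76-fold at 2 mM (log2 0.82 ± 0.070, SE, QL adjusted p = 5.58e-09) and 1.66-fold at 11 mM (log2 0.74 ± 0.068, SE, QL adjusted p = 2.17e-08). A long noncoding RNA, LOC134486187, overlaps Id1 in RefSeq, and another, LOC120100717, overlaps Fst. The counts come from a different build and the strand setting of the counting is not given. Whether reads of each pair were kept apart is therefore not known.

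Id4 moved the other way. Id4, best known from neural and mammary development, held 83.6, 85.3 and 74.0 CPM in GFP cells kept at 2 mM and 94.5, 99.0 and 96.2 CPM in those kept at 11 mM. With ChREBPβ it was at 27.6, 36.0 and 30.5 CPM at 2 mM and at 38.8, 40.7 and 38.9 CPM at 11 mM. All ChREBPβ libraries lay below all GFP libraries, by 2.56-fold at 2 mM (log2 -1.36 ± 0.073, SE, QL adjusted p = 3.68e-12) and 2.45-fold at 11 mM (log2 -1.29 ± 0.070, SE, QL adjusted p = 6.58e-12).

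Id3, often expressed together with Id1, held 37.0, 42.6 and 38.0 CPM with GFP and 30.9, 39.6 and 35.7 CPM with ChREBPβ at 2 mM. At 11 mM it held 44.0, 36.6 and 40.8 CPM with GFP and 32.5, 41.7 and 35.2 CPM with ChREBPβ. The groups overlapped, and neither difference passed the test. The log2 fold change was -0.14 at 2 mM (95% interval -0.34 to 0.06, QL adjusted p = 0.215) and -0.15 at 11 mM (95% interval -0.34 to 0.04, QL adjusted p = 0.172).

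The shift among the Id genes was also measured as a ratio of counts within a library, which no scaling between libraries can move. Such a ratio depends on transcript lengths, so only its change between libraries is read. The ratio of Id1 to Id4 counts was 0.433 on average with GFP at 2 mM and 0.409 at 11 mM, and 1.97 and 1.67 with ChREBPβ. On the log2 scale it went from -1.21 ± 0.063 (SD, n = 3) to 0.98 ± 0.095 at 2 mM and from -1.30 ± 0.16 to 0.73 ± 0.12 at 11 mM. The Id2 to Id4 ratio went from 0.0134 to 0.223 at 2 mM and from 0.0244 to 0.177 at 11 mM. No GFP library overlapped a ChREBPβ library in either ratio, nor in those of Id3 to Id4 and Id1 to Id3. For Id1 to Id4 and Id2 to Id4 this follows from the levels of these genes given above. The ratios use the same counts and are no separate support.

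**Figure D2:**
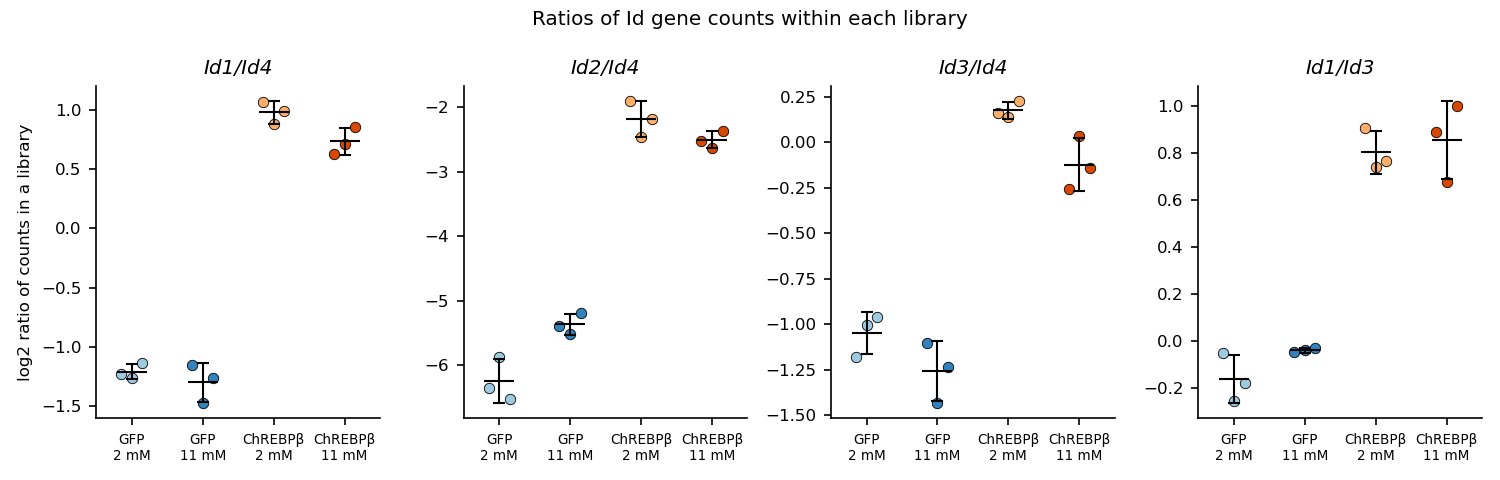
Log2 ratio of the counts of 2 Id genes within each of the 12 libraries (points), with the mean and SD of each group of 3 (bars). For Id1 to Id4 the GFP libraries lay between -1.47 and -1.14 and the ChREBPβ libraries between 0.63 and 1.07.

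Inhbb fell with ChREBPβ, and Inhba, which encodes the activin βA subunit, did so at neither glucose concentration. Inhbb counts gave 3.82, 4.02 and 4.42 CPM in GFP cells at low glucose and 2.74, 2.36 and 3.02 CPM at high glucose. It was at 1.72, 1.98 and 1.07 CPM with ChREBPβ at 2 mM and at 1.28, 1.42 and 1.26 CPM at 11 mM, below all GFP libraries. The decrease was 2.59-fold at 2 mM (log2 -1.38 ± 0.19, SE, QL adjusted p = 4.72e-06) and 2.06-fold at 11 mM (log2 -1.04 ± 0.19, SE, QL adjusted p = 1.59e-04).

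Inhba was low in every library, with 10 to 80 counts. It was at 0.367, 0.962 and 0.609 CPM with GFP and 0.430, 0.838 and 0.680 CPM with ChREBPβ at 2 mM, which overlap fully. At 11 mM it was at 0.796, 0.830 and 0.381 CPM with GFP and 1.36, 1.00 and 1.08 CPM with ChREBPβ, which do not overlap. The log2 fold change was 0.03 ± 0.37 (SE) at 2 mM (QL adjusted p = 0.945) and 0.79 ± 0.33 at 11 mM (QL adjusted p = 0.0495). The call at 11 mM was lost with library totals (log2 0.71, QL adjusted p = 0.0780) and on leaving out any of 7 single libraries: GFP 2 mM c, GFP 11 mM c, ChREBPβ 2 mM b or c, or ChREBPβ 11 mM a, b or c. Over those losses the log2 fold change was 0.50 to 0.88 and the QL adjusted p 0.0544 to 0.241.

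Bambi, which resembles a type I receptor without a kinase domain and blocks receptor signaling, was at 13.9, 15.2 and 16.99 CPM with GFP and 11.2, 13.1 and 13.0 CPM with ChREBPβ at 2 mM. It fell with ChREBPβ at 2 mM (log2 -0.30 ± 0.095, SE, QL adjusted p = 0.0106). That call was lost without GFP 2 mM c (log2 -0.22, QL adjusted p = 0.0731) or without ChREBPβ 2 mM a (log2 -0.24, QL adjusted p = 0.0539). At 11 mM Bambi was at 11.7, 10.9 and 11.7 CPM with GFP and 10.4, 12.9 and 12.7 CPM with ChREBPβ, which overlap (log2 0.06, 95% interval -0.13 to 0.26, QL adjusted p = 0.599).

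The inhibitory Smads did not pass the test in any comparison. Smad7, which blocks activated receptors of both branches, held 10.1, 8.37 and 8.91 CPM with GFP and 8.49, 11.6 and 8.26 CPM with ChREBPβ at 2 mM. At 11 mM it held 8.67, 7.85 and 7.996 CPM with GFP and 7.62, 9.23 and 10.0 CPM with ChREBPβ. ChREBPβ against GFP gave log2 0.07 at 2 mM (95% interval -0.21 to 0.34) and 0.13 at 11 mM (95% interval -0.13 to 0.39).

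Smad6, which preferentially restrains BMP receptors, held 40 to 91 counts in a library. It was at 1.69, 1.49 and 1.28 CPM with GFP and 1.47, 1.62 and 0.788 CPM with ChREBPβ at 2 mM, and at 1.11, 1.55 and 1.04 CPM and 0.972, 1.18 and 1.04 CPM at 11 mM. The intervals of its log2 fold change were wider, -0.77 to 0.34 at 2 mM and -0.74 to 0.34 at 11 mM. Fst held 2 to 16 counts in a library, at 0.0423 to 0.375 CPM, and was not tested for a difference between groups. Since the RNA had been amplified, reads are not independent molecules.

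**Figure D3:**
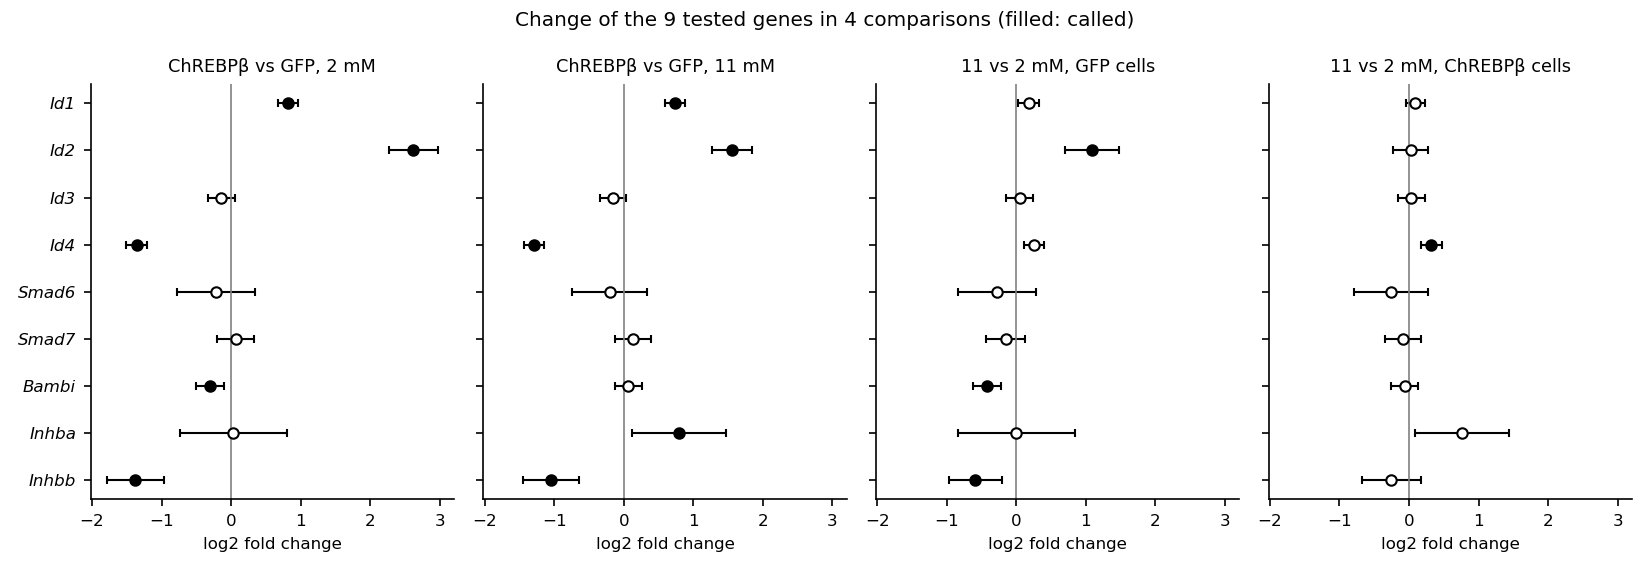
Log2 fold change (points) with its 95% interval (bars) of the 9 tested genes in 4 comparisons, with filled points for genes called. Id2 was at 2.62 and 1.56 in the ChREBPβ comparisons and at 1.09 and 0.03 for glucose in GFP and in ChREBPβ cells.

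Glucose itself moved fewer of these genes, and it also moved fewer of all tested genes. In GFP cells Id2 rose 2.13-fold from 2 to 11 mM (log2 1.09 ± 0.19, SE, QL adjusted p = 1.45e-04), with no overlap between the groups. Bambi fell by 0.43 ± 0.096 (SE) on the log2 scale (QL adjusted p = 0.00164) and Inhbb fell by 0.59 ± 0.18 (QL adjusted p = 0.0165). The Inhbb call was lost without GFP 2 mM c (log2 -0.53, QL adjusted p = 0.0632) or without GFP 11 mM b (log2 -0.50, QL adjusted p = 0.0573). So 1 gene was called higher and 2 lower, against 10.2% and 10.0% of all tested genes. Id4 had a log2 fold change of 0.25 (QL adjusted p = 0.00746), which is under 1.2-fold, and it was called without GFP 2 mM a or b or without GFP 11 mM a (log2 0.27 to 0.29).

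In ChREBPβ cells glucose raised Id4 1.25-fold (log2 0.32 ± 0.072, SE, QL adjusted p = 0.00849), from 27.6 to 36.0 CPM at 2 mM to 38.8 to 40.7 CPM at 11 mM. Without ChREBPβ 2 mM a the change was 0.25 (QL adjusted p = 0.0586) and without c it was 0.30 (QL adjusted p = 0.0612), which ended the call. Id4 was the only call of the 9, and over all tested genes 0.988% were called higher and 2.88% lower. Id2 had a log2 fold change of 0.03 (95% interval -0.23 to 0.28, QL adjusted p = 0.936), and Inhba one of 0.76 (95% interval 0.09 to 1.43, QL adjusted p = 0.176).

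The effect of ChREBPβ on Id2 was smaller at 11 mM than at 2 mM. The difference of the log2 fold changes, the interaction, was -1.06 (95% interval -1.53 to -0.59, QL adjusted p = 0.00532). Id2 was the only call of the 9, while over all tested genes 1.56% were called with a higher and 4.74% with a lower interaction. For Id1 the interaction was -0.08 (95% interval -0.29 to 0.12, QL adjusted p = 0.708) and for Id4 it was 0.07 (95% interval -0.14 to 0.28, QL adjusted p = 0.771). Inhbb gave 0.34 (95% interval -0.24 to 0.91) and Inhba gave 0.76 (95% interval -0.27 to 1.80). For Bambi it was 0.36 (95% interval 0.09 to 0.64, QL adjusted p = 0.107), and it was called without ChREBPβ 11 mM a (0.45, QL adjusted p = 0.0310).

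The virus at low glucose was also set against glucose alone. ChREBPβ cells at 2 mM had 2.89-fold more Id2 than GFP cells at 11 mM (log2 1.53 ± 0.14, SE, QL adjusted p = 1.96e-08) and 1.56-fold more Id1 (log2 0.64 ± 0.068, SE, QL adjusted p = 2.13e-07). Id4 was lower by 3.06-fold and Inhbb by 1.72-fold. These 2 higher and 2 lower calls stand beside 12.2% and 14.8% of all genes. With both the virus and high glucose, set against GFP at 2 mM, 3 genes were called higher and 3 lower, against 23.7% and 26.8% of all genes. Those higher were Id1, Id2 and Inhba, with log2 fold changes of 0.91, 2.65 and 0.80, and those lower were Id4, Bambi and Inhbb, with -1.04, -0.36 and -1.63. Inhba was the weakest of the 6 (QL adjusted p = 0.0494) and lost its call with library totals (0.68, QL adjusted p = 0.0909) and on leaving out GFP 2 mM a or c, GFP 11 mM a, ChREBPβ 2 mM b or c, or ChREBPβ 11 mM a, b or c. Over those losses its log2 fold change was 0.54 to 0.89 and its QL adjusted p 0.0516 to 0.206. All these comparisons share libraries.

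Around the 10 genes, 7 lists of pathway genes were counted. Shares called higher and lower over all tested genes stand beside each count, the median log2 fold change of all genes was -0.02 at 2 and at 11 mM, and no list was tested against the rest. The partners of Id proteins and related bHLH factors had 8 of 10 genes tested, of which 2 rose and 4 fell with ChREBPβ at 2 mM and 1 rose and 3 fell at 11 mM (all genes 21.0% and 23.2%, then 14.3% and 19.1%). The median log2 fold change of the 8 was -0.31 and -0.20. Tcf4 and Neurog3, which were not tested, held 0 counts in every library. Whether the cells or the gene annotation account for these empty entries was not tested. Hes1, a bHLH repressor downstream of Notch, rose from 3.66 ± 0.77 to 26.5 ± 0.72 CPM (SD, n = 3) in low glucose and from 6.27 ± 0.76 to 28.8 ± 1.5 CPM in high glucose. Its log2 fold changes were 2.85 (QL adjusted p = 1.78e-14) and 2.20 (QL adjusted p = 1.78e-13). Hey1, a related repressor, fell by 1.33 at 2 mM (QL adjusted p = 9.52e-04) and by 0.71 at 11 mM (QL adjusted p = 0.0353), and Ascl2 rose by 1.203 at 2 mM (QL adjusted p = 0.0266). The latter 2 calls were each lost on leaving out single libraries (Hey1 at 11 mM without GFP 11 mM a or b or ChREBPβ 11 mM b or c, log2 -0.71 to -0.52, and Ascl2 without GFP 2 mM b or ChREBPβ 2 mM a or b, log2 0.75 to 1.17).

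Of 31 other TGF-β family ligands 11 were tested, with 1 higher and 4 lower at 2 mM (all genes 21.0% and 23.2%) and 3 of each at 11 mM (all genes 14.3% and 19.1%). Their median log2 fold change was -0.09 and -0.17. Tgfb3 rose, by 1.81 ± 0.26 (SE) at 2 mM and 1.31 ± 0.23 at 11 mM on the log2 scale (QL adjusted p = 5.27e-06 and 7.55e-05). Tgfb2 fell by 1.03 ± 0.20 and 1.21 ± 0.18 (QL adjusted p = 1.66e-04 and 1.05e-05). Mstn, encoding myostatin, had 2 to 44 counts in a library and log2 fold changes of -2.11 and -1.50 (QL adjusted p = 0.0327 and 0.0377). The Mstn calls were lost on leaving out GFP 2 mM b or ChREBPβ 2 mM a, b or c (log2 -2.50 to -1.22) at 2 mM, and GFP 11 mM c or ChREBPβ 11 mM b or c (log2 -1.40 to -0.41) at 11 mM.

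Receptors and co-receptors had 13 of 18 genes tested, with 4 higher and 4 lower at 2 mM (all genes 21.0% and 23.2%) and 4 higher and 3 lower at 11 mM (all genes 14.3% and 19.1%). The median was 0.0032 and -0.05. Among those not tested, Bmpr2 held 0 counts in every library and Tgfbr2 at most 1 in a library. Whether this reflects the cells or the gene annotation was not tested. Acvr1c, the activin and Nodal type I receptor ALK7, fell by 1.24 ± 0.23 (SE) at 2 mM (QL adjusted p = 1.37e-04), and was at log2 -0.19 when compared at 11 mM (QL adjusted p = 0.525). Its mean was 3.23 CPM at 2 mM and 1.56 CPM at 11 mM with GFP, and 1.34 and 1.36 CPM with ChREBPβ. The GFP level was thus lower at 11 mM, while that with ChREBPβ was similar at both. Eng, which encodes endoglin, rose by 1.62 at 2 mM (QL adjusted p = 0.0201) and Hjv, encoding hemojuvelin, by 1.52 at 11 mM (QL adjusted p = 0.0388), with 1 to 23 and 2 to 25 counts in a library. Mean Hjv with GFP was 0.363 CPM at 2 mM and 0.0903 CPM at 11 mM, and with ChREBPβ 0.167 and 0.269 CPM. The Eng call was lost without GFP 2 mM a or b or ChREBPβ 2 mM b (log2 1.27 to 1.54), and that of Hjv without GFP 11 mM b or c or ChREBPβ 11 mM b (log2 0.98 to 1.46). Eng was at most 0.187 CPM in a GFP library and at 0.238 to 0.307 CPM with ChREBPβ at 11 mM. It passed the filter on low counts only through ChREBPβ libraries, where it is high.

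Of the Smads that carry the signal, Smad1, Smad2, Smad3, Smad4, Smad5 and Smad9, all 6 were tested, with 1 lower at 2 mM and 1 higher at 11 mM (all genes 23.2% lower and 14.3% higher). The median was 0.02 and 0.11. Of these, Smad5 fell by 0.29 ± 0.056 (SE) at 2 mM (QL adjusted p = 1.58e-04) and Smad3 rose by 0.29 ± 0.086 at 11 mM (QL adjusted p = 0.00790). Both lie near the minimum of 1.2-fold. Smad5 went under it without GFP 2 mM a (log2 -0.24), and Smad3 with library totals (log2 0.21), without GFP 11 mM b (log2 0.25) or without ChREBPβ 11 mM a (log2 0.24).

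Extracellular antagonists had 8 of 14 genes tested, with 1 higher and 4 lower at each glucose concentration (all genes 21.0% and 23.2% at 2 mM, 14.3% and 19.1% at 11 mM). The median was -0.19 and -0.49. Nog, which encodes the BMP antagonist noggin, rose by 2.55 ± 0.35 (SE) at 2 mM and 2.26 ± 0.30 at 11 mM (QL adjusted p = 3.95e-06 and 3.24e-06), from 5 to 9 counts to 36 to 76 counts in a library at 2 mM. Chrd, encoding chordin, another BMP antagonist, fell by 1.16 ± 0.15 and 1.32 ± 0.15 (QL adjusted p = 1.13e-06 and 5.96e-07). Chrdl1, a chordin-like gene, fell by 0.61 at 11 mM (QL adjusted p = 0.0395), a call lost with the replicate letter as a block (QL adjusted p = 0.0504) and without GFP 11 mM a, b or c or ChREBPβ 11 mM a or b (log2 -0.67 to -0.46).

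Intracellular inhibitors beyond Smad6 and Smad7 had 9 of 10 genes tested, with 2 higher and 3 lower at 2 mM (all genes 21.0% and 23.2%) and 2 higher and 1 lower at 11 mM (all genes 14.3% and 19.1%). The median was -0.14 and 0.02. Tgif1, a corepressor of Smad2 and Smad3, rose by 0.75 ± 0.13 (SE) and 0.41 ± 0.11 (QL adjusted p = 4.25e-05 and 0.00504). Fkbp1a, which keeps type I receptors inactive, rose by 0.43 ± 0.039 and 0.31 ± 0.039 (QL adjusted p = 1.20e-08 and 1.55e-06). Nedd4l, a ubiquitin ligase of activated Smads, fell by 0.55 ± 0.045 and 0.27 ± 0.044 (QL adjusted p = 2.50e-09 and 3.83e-05). At 11 mM the change of Nedd4l went under 1.2-fold in DESeq2 and with RLE factors (both log2 -0.25), with at least 10 counts in every library (log2 -0.26), and without GFP 11 mM a or b or ChREBPβ 11 mM c (log2 -0.26 to -0.25), and that of Fkbp1a did so with library totals (log2 0.23).

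Other known Smad target genes had 7 of 12 tested, with 3 higher and 2 lower at 2 mM (all genes 21.0% and 23.2%) and 3 higher and 1 lower at 11 mM (all genes 14.3% and 19.1%). The median was -0.11 and -0.12. Junb, an AP-1 subunit, went up in low glucose from 29.8 ± 0.59 to 84.1 ± 3.7 CPM and in high glucose from 42.2 ± 2.5 to 100.02 ± 3.1 CPM (SD, n = 3). Ltbp1, which encodes a protein that holds latent TGF-β in the matrix, rose by 1.69 ± 0.31 (SE) and 1.30 ± 0.26 (QL adjusted p = 1.08e-04 and 3.07e-04).

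**Figure D4:**
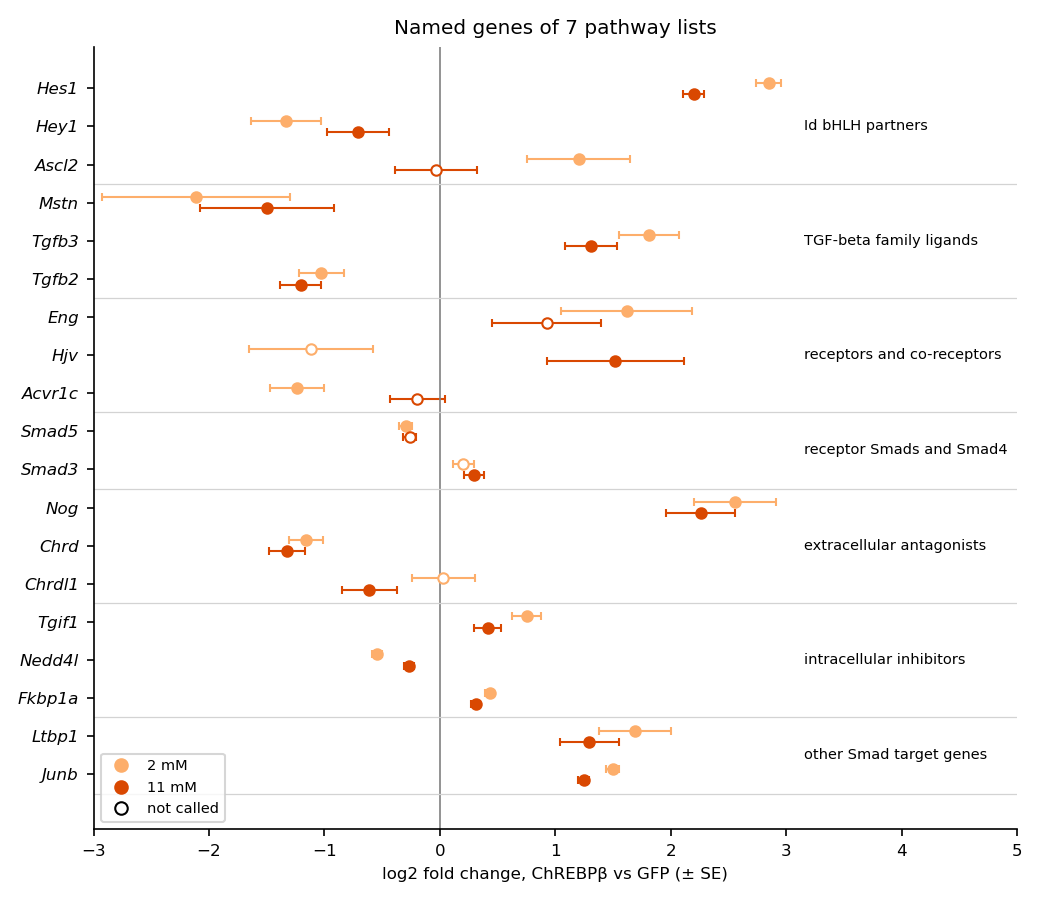
Log2 fold change (points, with SE) with ChREBPβ at 2 and 11 mM for the named genes of 7 pathway lists, at most 3 of each with the largest called changes, with open points where a gene was not called. Hes1, Nog, Tgfb3, Ltbp1 and Junb lay above 1 at both concentrations, and Mstn, Tgfb2 and Chrd below -1.

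In GFP cells, where 10.2% of all tested genes were called higher and 10.0% lower with glucose, it raised 2 and lowered 1 of the 8 bHLH genes, lowered 2 of the 11 ligands and 2 of the 13 receptors, raised 1 and lowered 2 of the 8 extracellular antagonists, raised 1 and lowered 1 of the 9 intracellular inhibitors and raised 3 of the 7 Smad targets. In ChREBPβ cells, where 0.988% of all genes were called higher and 2.88% lower, the calls were 1 lower ligand, 1 lower receptor, 2 lower extracellular antagonists and 1 higher Smad target.

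Genes whose log2 CPM ran most like each Id gene over the 12 libraries were found among tested genes averaging 5 CPM or more. They were Isg20, Pfkl and Pdhx for Id1, Cnot9, Zmynd15 and Slc7a6 for Id2, and Pde1c, Gabrq and Pon2 for Id4, with Pearson r between 0.988 and 0.994. For Inhbb they were Oscp1, Ift88 and Ap5b1 (r of 0.967 to 0.981), and for Id3 Zfp707, Traf2 and Umps (r of 0.852 to 0.892). Bambi ran most like Krt8, Tmub2 and Atp6v0d1 (r of 0.912 to 0.930), and Inhba most like Trit1, Cxcl10 and Pcdhb12 (r of 0.872 to 0.926). Smad6 had Htatsf1, Slx4ip and Mcm9 (r of 0.786 to 0.816), and Smad7 had Cwc25, Pole4 and Zscan12 (r of 0.709 to 0.873). The libraries fall into 4 groups, so the r values describe mostly group means, and they share the library scaling.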

How the data were processed

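RNA of INS-1 832/13 cells was amplified and sequenced in paired-end reads in 12 libraries, 3 for each of 4 groups. The authors deposited raw counts per gene without normalization, and beside them the mean count signal of each group, which was not used for any result. The submitters' notes name the build Rnor_6.0 and edgeR. The aligner and the counting program are not given in the sources used here. An entry without a name, 0.0043% to 0.0060% of a library, was left out. 

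Genes were filtered by group with filterByExpr in edgeR 4.0.16 (R 4.3.3), scaled with TMM factors and tested in a single quasi-likelihood fit of all 12 libraries with group as factor. Contrasts covered the 6 pairs of groups and the interaction, 7 in all, with Benjamini-Hochberg adjustment over 14669 genes. A call needed an adjusted p under 0.05 and a 1.2-fold change. On data simulated for ChREBPβ against GFP at 2 mM, 169 of 200 changed genes (84.5%) were recovered with 7 false calls among 14524 tested. The simulation changed only those 200 genes, up and down, whereas 6476 were called in the data. It therefore does not give the error rate or test the scaling for these data. Whether the replicate letters pair libraries across groups is not given in the sources used here, and the main fit had no pairing. Deviations from group means correlated at -0.11 to 0.06 in 18 same-letter pairs and at -0.087 to 0.16 in 36 different-letter pairs. These ranges overlap and cannot settle whether the letters pair. P-values weigh a group difference against the spread between these libraries, estimated over all 12 with information shared between genes.

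The genes and lists were chosen with earlier results of these data known. Named are all 10 genes, the up to 3 genes of each list with the largest called change with ChREBPβ at either glucose concentration, for each tested gene the 3 most alike genes averaging 5 CPM or more, and Mlxipl and Txnip. The ChREBPb entry and CCAAT were added after the values were seen, and Bmpr2, Tgfbr2, Tcf4 and Neurog3 are named for their empty or nearly empty entries. Alternatives were DESeq2 1.42.0, RLE factors, library totals, a minimum of 10 counts in every library, no filter, no minimum fold change, only the groups compared, a replicate block and leaving out each library. Promoters are from RefSeq (GRCr8), whose coordinates are not those of the count table. Protein sequences were not used here. The result of a single gene that this rule names is not reported here. Tables and plots were made with Python 3.11.15.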

Additional observations from a re-analysis of the deposited data

Results flagged for a closer look

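The ChREBPβ response at 11 mM glucose differed from that at 2 mM for 6 genes of the set and its pathway lists, by the interaction term of the edgeR fit. Over all tested genes 1.56% were called with a higher and 4.74% with a lower interaction, and the 6 are among 71 tested genes of the set and lists. Of the 6, Nedd4l, Tgfb1, Bmp3 and Hjv were called with a higher interaction and Id2 and Hes1 with a lower one. For Id2 the log2 effect at 11 mM minus that at 2 mM was -1.06 (QL adjusted p = 0.00532), and all 6 ChREBPβ libraries held more Id2 than any GFP library.

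Hes1 gave -0.65 (QL adjusted p = 0.00991), with an increase at both concentrations. Nedd4l gave 0.28 (QL adjusted p = 0.00865), with a decrease at both. Tgfb1, which encodes TGF-β1, gave 1.17 (QL adjusted p = 0.0225), with a log2 fold change of -0.01 at 2 mM and 1.16 at 11 mM. Its mean was 1.71 CPM at 2 mM and 0.856 CPM at 11 mM with GFP, and 1.74 and 1.92 CPM with ChREBPβ. The difference at 11 mM thus came mostly with a lower level in the GFP cells. Tgfb1 held 29 to 114 counts in a library. Bmp3, encoding a BMP family ligand, gave 0.31 (QL adjusted p = 0.0404), with 0.15 at 2 mM and 0.46 at 11 mM. Hjv gave 2.64 (QL adjusted p = 0.0481) on 2 to 25 counts in a library, with -1.12 at 2 mM and 1.52 at 11 mM. Its mean was 0.363 CPM at 2 mM and 0.0903 CPM at 11 mM with GFP, and 0.167 and 0.269 CPM with ChREBPβ. Tgfb1 and Bmp3 are named here after their values were seen. The interactions of Hes1, Nedd4l, Tgfb1, Bmp3 and Hjv were not checked under the alternative settings or with single libraries left out.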

How the results depend on the processing

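Counts of called genes among the 9 stayed within 1.5 times the reported count in 136 of 139 alternative results, and the other 3 came from leaving out a library. On leaving out single libraries the counts were 4 to 5 for ChREBPβ at 2 mM, 4 to 5 at 11 mM, 2 to 4 for glucose in GFP cells, 0 to 1 for glucose in ChREBPβ cells (0 without ChREBPβ 2 mM a or c), 5 to 6 for virus and glucose together, 4 to 5 for the virus against glucose, and 1 to 2 for the interaction (2 without ChREBPβ 11 mM a). With the replicate block the counts of called genes among the 9 did not change in any comparison, and over all genes 6449 in place of 6476 were called with ChREBPβ at 2 mM.

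Of values for single genes, 25 changed sign, all for values not called, 63 lost a call and 5 gained one. With library totals Smad7 and Inhba with ChREBPβ at 2 mM went to -0.0349 and -0.0646, and Bambi at 11 mM to -0.0204. Inhba for glucose in GFP cells, reported at 0.0012 on the log2 scale, was at -0.0028 with RLE factors, -0.0286 with library totals, -0.0072 with at least 10 counts in every library and -2.31e-04 with only the groups compared, and -0.26 to 0.42 on leaving out single libraries. The other ranges on leaving out single libraries that crossed 0 were, with ChREBPβ at 2 mM, -0.469 to 0.0724 for Smad6, -0.12 to 0.17 for Smad7 and -0.22 to 0.45 for Inhba, for glucose in GFP cells -0.0160 to 0.114 for Id3, for glucose in ChREBPβ cells -0.0331 to 0.0760 for Id2, -0.0740 to 0.123 for Id3, -0.19 to 0.10 for Smad7 and -0.122 to 0.0286 for Bambi, and for the interaction -0.0030 to 0.18 for Id4. The cause was not tested. Mstn at 11 mM also lost its call in DESeq2 (DESeq2 adjusted p = 0.0558), with the replicate block (QL adjusted p = 0.0615) and with only the groups compared (QL adjusted p = 0.0532).

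Over all genes, dropping the minimum fold change moved the count of calls from 2963 to 5030 for glucose in GFP cells, from 567 to 1100 for glucose in ChREBPβ cells and from 3955 to 6109 for ChREBPβ at 2 mM against GFP at 11 mM. Library totals moved the share of higher calls from 46.9% to 33.4% for virus and glucose together and from 45.2% to 33.0% for the virus against glucose, with a median log2 fold change of all genes of -0.13 and -0.08. Low counts limit Fst (2 to 16 in a library), Inhba (10 to 80), Id2 with GFP at 2 mM (25 to 50) and Smad6 (40 to 91).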
